A study of Mus musculus with 11 samples.

Results

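The transcripts described are those of 9 ADAMTS proteases, Adamts1, Adamts2, Adamts4, Adamts5, Adamts6, Adamts9, Adamts10, Adamts12 and Adamts20, taken from a table of 23286 rows by matching each row's RefSeq accessions to these symbols. Each of the 9 had 1 row, and all 9 reached 1 FPKM in at least 1 group. That minimum left 11702 rows to compare, and all 9 members passed it in all 3 groups. The cells were mouse embryonic palatal mesenchyme cells, primary cultures from E13.5 palates, and every group had been kept overnight in 0.1% serum after growth in 10% serum. The groups were 3 libraries after 1 h of FGF1 (50 ng/mL, together with heparin at 1 µg/mL), 4 after 1 h of PDGFA (30 ng/mL) and 4 of starved cells that got no ligand. Heparin was named only for the FGF1 cells, and no group had heparin alone, so FGF1 and heparin cannot be told apart. The labels gave no strain, and did not say whether libraries came from separate litters or cultures.

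For each gene and group the authors deposited 1 FPKM (a fragment count divided by transcript length and by the mapped fragments of the library) and a pair of bounds around it. Square brackets below hold those bounds. No values per library and no read counts were used, so replicate spread and depth are unknown and no test between replicates stands behind any comparison. To be called, a row needed deposited intervals with no overlap between the groups compared. Ratios are given with an approximate 95% interval made from the bounds, taken as 95% bounds. Over compared rows the half-width of the deposited interval was a median 34.7% of the FPKM in FGF1 cells, 49.6% in PDGFA cells and 25.6% in starved cells. Of 8 palatal mesenchyme markers with a value, 7 reached 1 FPKM in each group. They included Pdgfra, at 2.46, 3.52 and 3.87 FPKM in FGF1, PDGFA and starved cells, and Vim, at 2315, 2582 and 1982 FPKM. The remaining one, Tbx22, was near 0 (0.0919, 0.0812 and 0.0672 FPKM). None of 5 epithelial markers reached 1 FPKM in any group, the highest being Cdh1 at 0.27, 0.312 and 0.25 FPKM.

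ADAMTS proteins are secreted zinc metalloproteases with thrombospondin repeats that tether them to the extracellular matrix. They are made with a propeptide that furin-type convertases remove, are inhibited mainly by TIMP3, and several are cleared from the cell surface through the receptor LRP1. Adamts1, Adamts4, Adamts5, Adamts9 and Adamts20 cleave large proteoglycans such as versican and aggrecan, Adamts2 trims the amino-terminal propeptide of fibrillar procollagens, Adamts10 and Adamts6 act on fibrillin microfibrils, and Adamts12 cleaves cartilage oligomeric matrix protein. In mouse embryos Adamts9 and Adamts20 act together, with versican as a substrate, in closure of the secondary palate.

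The 9 members share the catalytic site of zinc metalloproteases, a motif that other metalloprotease families have too. The coding bases of this zinc-binding motif are given for each member, 5′ to 3′, with the codons of the 3 zinc-holding histidines and of the catalytic glutamate in capitals. They were found by translating GENCODE M21 transcripts, which share the GRCm38 (mm10) build of the deposited table.
Adamts1: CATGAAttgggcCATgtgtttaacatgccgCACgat
Adamts9: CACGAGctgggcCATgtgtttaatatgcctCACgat
Adamts20: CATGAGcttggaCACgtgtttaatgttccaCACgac
Adamts4: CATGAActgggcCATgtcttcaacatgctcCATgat
Adamts5: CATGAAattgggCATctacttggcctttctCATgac
Adamts2: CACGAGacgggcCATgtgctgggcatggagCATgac
Adamts6: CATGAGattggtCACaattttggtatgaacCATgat
Adamts10: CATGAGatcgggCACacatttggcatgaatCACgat
Adamts12: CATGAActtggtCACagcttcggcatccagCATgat
Each run has 36 bases and is exonic coding sequence, split by an intron in every member. In Adamts1, Adamts4 and Adamts5 the split falls after base 10, and in the other 6 members after base 17. Adamts1 and Adamts9 were the most alike pair, identical at 31 of 36 bases (86.1%). Adamts1 and Adamts4 shared 30 bases (83.3%), and Adamts6 and Adamts10 shared 29 (80.6%). The least alike pair was Adamts2 and Adamts20, with 19 (52.8%). From first to last base, introns included, the Adamts1 site spans chr16:85799188-85799545 (exons 3 and 4, minus strand), the Adamts5 site chr16:85878012-85887826 (exons 2 and 3, minus strand) and the Adamts2 site chr11:50775403-50776137 (exons 7 and 8, plus strand). The Adamts9 site, at chr6:92905282-92908493 in exons 8 and 9 of the full-length transcript, lies outside the locus of the deposited Adamts9 row, chr6:92772699-92901441. That row's accession pairs with a shorter GENCODE transcript of 6033 bases that starts inside the gene, against 8016 bases for the full-length one. The Adamts9 values below therefore describe a transcript model without the codons for the catalytic site.

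In level, the 9 members fell into a dominant pair and a lower set. Adamts1 and Adamts5, both proteoglycan-cleaving enzymes, together made up 78.6% of the summed FPKM of the 9 members in FGF1 cells, 75.7% in PDGFA cells and 74.6% in starved cells. Their genes are neighbours on chromosome 16, at chr16:85793828-85803115 for Adamts1 and chr16:85858157-85901125 for Adamts5, with 55 kb between them. Adamts1 had 142 FPKM [94.6 to 190.2] in FGF1 cells, 118 FPKM [59.7 to 176] in PDGFA cells and 109 FPKM [83.0 to 134] in starved cells. Adamts5 had 109.8 FPKM [72.7 to 147] in FGF1 cells, 105 FPKM [49.9 to 159] in PDGFA cells and 96.8 FPKM [72.0 to 121] in starved cells. The intervals of Adamts1 and Adamts5 overlapped in each group, so the order within the pair is not resolved. In starved cells 95% of compared rows lay below Adamts1 and 94.1% below Adamts5. The next member down was lower by a factor of 5.06 in FGF1 cells, 4.98 in PDGFA cells and 4.82 in starved cells, with intervals that lay apart from that of Adamts5 in every group.

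That next member was Adamts10, a protease of fibrillin microfibrils, with 21.7 FPKM [14.8 to 28.6] in FGF1 cells, 21.0 FPKM [11.1 to 30.96] in PDGFA cells and 20.1 FPKM [15.7 to 24.5] in starved cells. Adamts12 followed with 13.54 FPKM [9.40 to 17.7], 12.2 FPKM [6.74 to 17.7] and 14.6 FPKM [11.5 to 17.8] in the same order of groups. The proteoglycanase Adamts4 had 9.19 FPKM [6.18 to 12.2] in FGF1 cells, 9.65 FPKM [5.06 to 14.2] in PDGFA cells and 10.2 FPKM [7.75 to 12.6] in starved cells. From Adamts10 down to Adamts6, each member's interval overlapped that of its neighbour in the order, in all 3 groups. Adamts9 had 8.54 FPKM [5.89 to 11.2] in FGF1 cells, 9.92 FPKM [5.19 to 14.7] in PDGFA cells and 9.43 FPKM [7.39 to 11.4] in starved cells. The procollagen N-proteinase Adamts2 had 7.95 FPKM [5.26 to 10.6] in FGF1 cells, 11.6 FPKM [5.24 to 17.9] in PDGFA cells and 8.02 FPKM [6.19 to 9.84] in starved cells. Adamts6, the close relative of Adamts10, had 5.91 FPKM [3.98 to 7.83] in FGF1 cells, 5.35 FPKM [2.85 to 7.86] in PDGFA cells and 5.73 FPKM [4.38 to 7.07] in starved cells. In every group Adamts10 thus had the higher level of that related pair, with intervals that lay apart.

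Adamts20, whose loss in mice gives the belted coat, was the lowest member. It had 1.79 FPKM [0.816 to 2.76] in FGF1 cells, 1.91 FPKM [0.425 to 3.42] in PDGFA cells and 1.71 FPKM [0.936 to 2.49] in starved cells. Its interval lay apart from that of Adamts6, the next member up, in FGF1 and starved cells but not in PDGFA cells. The highest member exceeded it by a factor of 79.7 in FGF1 cells, 61.9 in PDGFA cells and 63.4 in starved cells. Of the 2 genes linked to palate closure in mice, Adamts9 was thus in the middle of the 9 members and Adamts20 at their foot. This order does not cover the whole family. Among ADAMTS proteases outside the 9, Adamts8 (0.325 FPKM) and Adamts19 (0.0947 FPKM) were lower still in starved cells. The Adamts2 row pools 2 accessions and the Adamts10 and Adamts20 rows 3 each, so isoforms cannot be told apart. Adamts9 shares 424 exonic bases (7.03% of its transcript) with Gm15737 and 166 bases (2.75%) with A730049H05Rik, both on the opposite strand. The sources used here do not say whether counting used strand, so reads in those stretches could come from either gene.

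**Figure D1:**
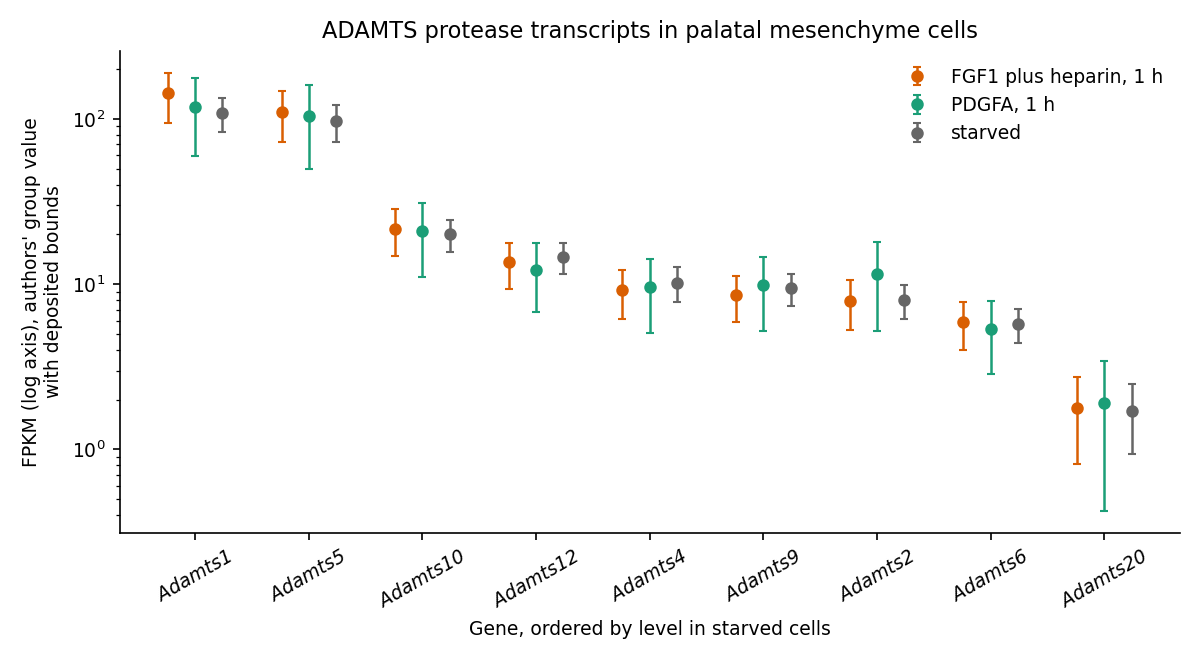
Level of each ADAMTS transcript in FPKM on a log axis, in cells after 1 h of FGF1 plus heparin, after 1 h of PDGFA, and in starved cells. Points are the authors' group values and bars the deposited bounds, the genes run from the highest to the lowest level in starved cells, and the bars of the 3 groups overlap for each gene.

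After 1 h of FGF1 with heparin, none of the 9 members was called higher or lower than in starved cells. Over all compared rows 0.538% were called higher and 0.0171% lower, so 0 of 9 members is what so small a background share would mostly leave and says nothing particular about the family. By the looser rule that the 95% interval of the ratio leaves out 1, the count was also 0 of 9, against 1.21% of compared rows. Levels in bulk RNA cannot separate fewer cells of a type from less RNA per cell. Adamts1, a versican- and aggrecan-cleaving protease, had the largest ratio, 1.31 (0.869 to 1.98), a log2 fold of 0.39 on FPKM + 0.5. Of compared rows 2.56% had a higher log2 fold. The bounds of Adamts1 would have lain apart only from a rise of 1.86-fold on, at the relative widths deposited, so the observed ratio was below what could be called. Adamts5 had a ratio of 1.13 (0.742 to 1.73). The lower-expressed proteoglycanases had ratios near 1: 0.902 (0.601 to 1.35) for Adamts4, 0.906 (0.621 to 1.32) for Adamts9 and 1.04 (0.514 to 2.12) for Adamts20. Adamts2 stood at 0.992 (0.659 to 1.49), the microfibril proteases Adamts10 and Adamts6 at 1.08 (0.734 to 1.59) and 1.03 (0.69 to 1.54), and Adamts12 at 0.925 (0.637 to 1.34). Thus 5 members lay above the starved value and 4 below, with Adamts2 changing side once a trend on GC content, length and level was removed. The 9 members had a median log2 fold of 0.04, against 0.02 over all compared rows. For the other members the smallest rise that could have been called was between 1.75-fold for Adamts12 and 3.18-fold for Adamts20.

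After 1 h of PDGFA, none of the 9 members was called, against 0.308% of compared rows called higher and 0% lower. By the ratio interval the count was also 0 of 9, against 1.12% of compared rows. Adamts2, the procollagen N-proteinase, had the largest ratio of PDGFA to starved cells, 1.45 (0.799 to 2.62), a log2 fold of 0.51. Of compared rows 4.82% had a higher log2 fold. Adamts2 would have needed a 2.71-fold rise to be called. The remaining proteases differed less. Adamts12 had the lowest ratio, 0.835 (0.508 to 1.37). Adamts1 and Adamts5, the dominant pair, had ratios of 1.09 (0.629 to 1.88) and 1.08 (0.605 to 1.93). Adamts20 stood at 1.11 (0.45 to 2.76), Adamts9 at 1.05 (0.623 to 1.77), Adamts10 at 1.05 (0.621 to 1.76), Adamts4 at 0.947 (0.556 to 1.61) and Adamts6 at 0.934 (0.554 to 1.58). Of the 9 members 6 lay above the starved value, of which Adamts1, Adamts5 and Adamts10 lay below it with quantile normalization. The median log2 fold was 0.07, against 0.00 over all compared rows. With the wider PDGFA intervals a rise could have been called only from 2.2-fold for Adamts12 up to 6.78-fold for Adamts20.

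**Figure D2:**
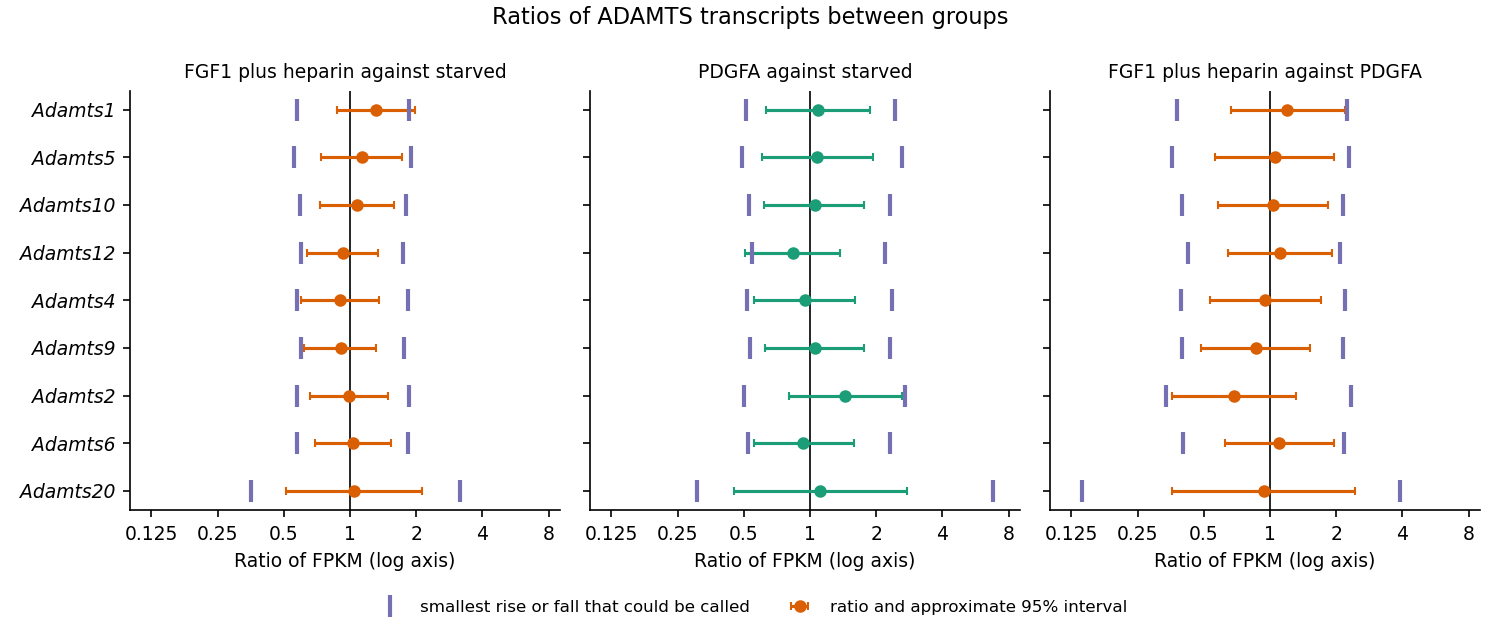
Ratio of FPKM for each ADAMTS transcript on a log axis, for FGF1 plus heparin against starved cells, PDGFA against starved cells, and FGF1 plus heparin against PDGFA. Points are ratios, bars approximate 95% intervals from the deposited bounds, and short upright marks the smallest rise and fall that could have been called; each bar crosses 1 and each point lies between its marks.

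PDGFA values moved with transcript base composition across the whole table, and that bears on these ratios. Among compared rows with transcripts of at least 200 bases the median log2 fold was -0.19 in the lowest octile of GC content and 0.24 in the highest. With FGF1 the same medians were 0.00 and 0.07. Adamts2, at 54.2% GC, had a value of 0.12 from a smooth trend fitted to GC, transcript length and expression level, which leaves 0.39 of its log2 fold of 0.51. Adamts5, at 43.7% GC, had a trend value of -0.15, so its log2 fold of 0.11 became 0.27 with the trend removed. Adamts10 has the most GC-rich transcript of the 9 members, 58.5%. Its log2 fold of 0.06 became -0.19 with the trend removed, against a trend value of 0.26. Directions of differences this small therefore depend on the processing. The summed FPKM of 7 skeletal muscle markers was 29.7 in FGF1 cells, 108 in PDGFA cells and 22.7 in starved cells, with 3, 5 and 3 of the 7 at 1 FPKM or more. Acta1 alone made up 24.6, 87.5 and 17.2 FPKM of these sums, and Myf5 was near 0 (0.0854, 0.0602 and 0.0634 FPKM). The sum of 5 smooth muscle and pericyte markers was 5572 in FGF1 cells, 6594 in PDGFA cells and 4526 in starved cells, with 4 of 5 at 1 FPKM or more in each. Most of it was Acta2 (3390, 3996 and 2745 FPKM) and Tagln (2016, 2290 and 1646 FPKM), while Rgs5 had 0.840, 0.514 and 0.829 FPKM. The part of base composition or of RNA from such cells in the Adamts2 difference was not tested.

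**Figure D3:**
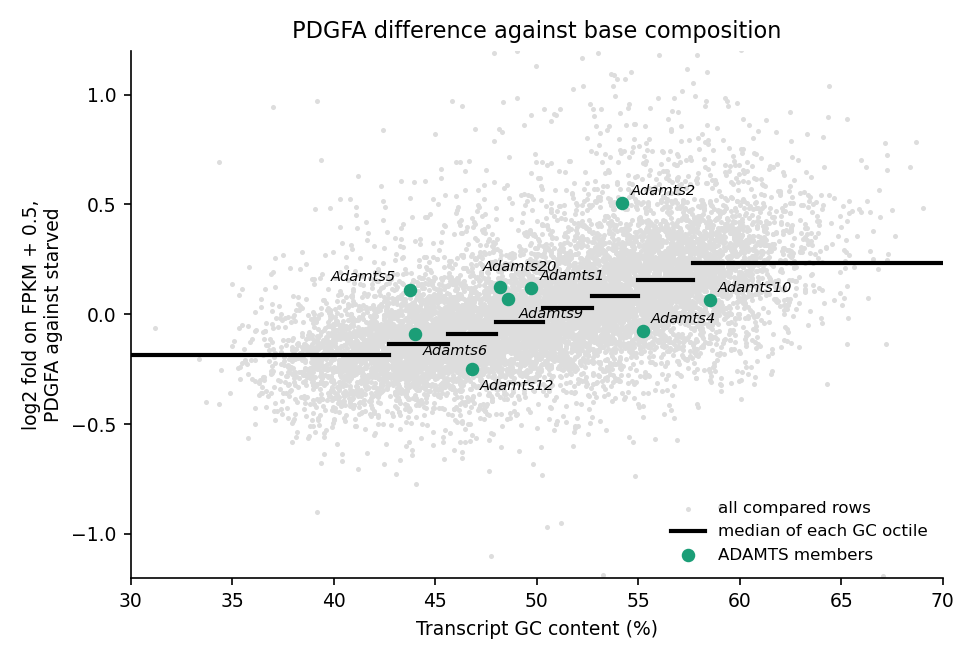
Log2 fold of PDGFA against starved cells, on FPKM + 0.5, against transcript GC content in percent for all compared rows (grey), the ADAMTS members (green) and the median of each GC octile (black lines). The medians run from -0.19 to 0.24, Adamts2 at 54.2% GC stands above its octile and Adamts10 at 58.5% GC below; 166 rows lie outside the axes.

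Between the ligands, none of the 9 members was called, against 0.0256% of compared rows called higher and 0.094% lower, nor by the ratio interval, against 0.47%. Over all rows 3 were called higher and 11 lower with FGF1 than with PDGFA, or 1 and 11 with median-of-ratios scaling. Both ligand groups were set against the same starved cells above, so their ratios are not independent. Adamts2 had the ratio farthest from 1, at 7.95 FPKM with FGF1 and 11.6 FPKM with PDGFA, a ratio of 0.686 (0.36 to 1.31) and a log2 fold of -0.52. Of compared rows 3.42% had a larger absolute log2 fold. With the trend on base composition, length and level removed, the Adamts2 value was -0.37. Adamts1 had the highest ratio, 1.2 (0.663 to 2.19), and Adamts9 stood at 0.861 (0.487 to 1.52). The other 6 members had ratios between 0.936 for Adamts20 and 1.11 for Adamts12, and of these Adamts20 changed side with quantile normalization and Adamts4 and Adamts5 with the trend removed. The median log2 fold of the 9 was 0.04, against 0.01 over all compared rows. The smallest rise that could have been called ran from 2.09-fold for Adamts12 to 3.91-fold for Adamts20.

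**Figure D4:**
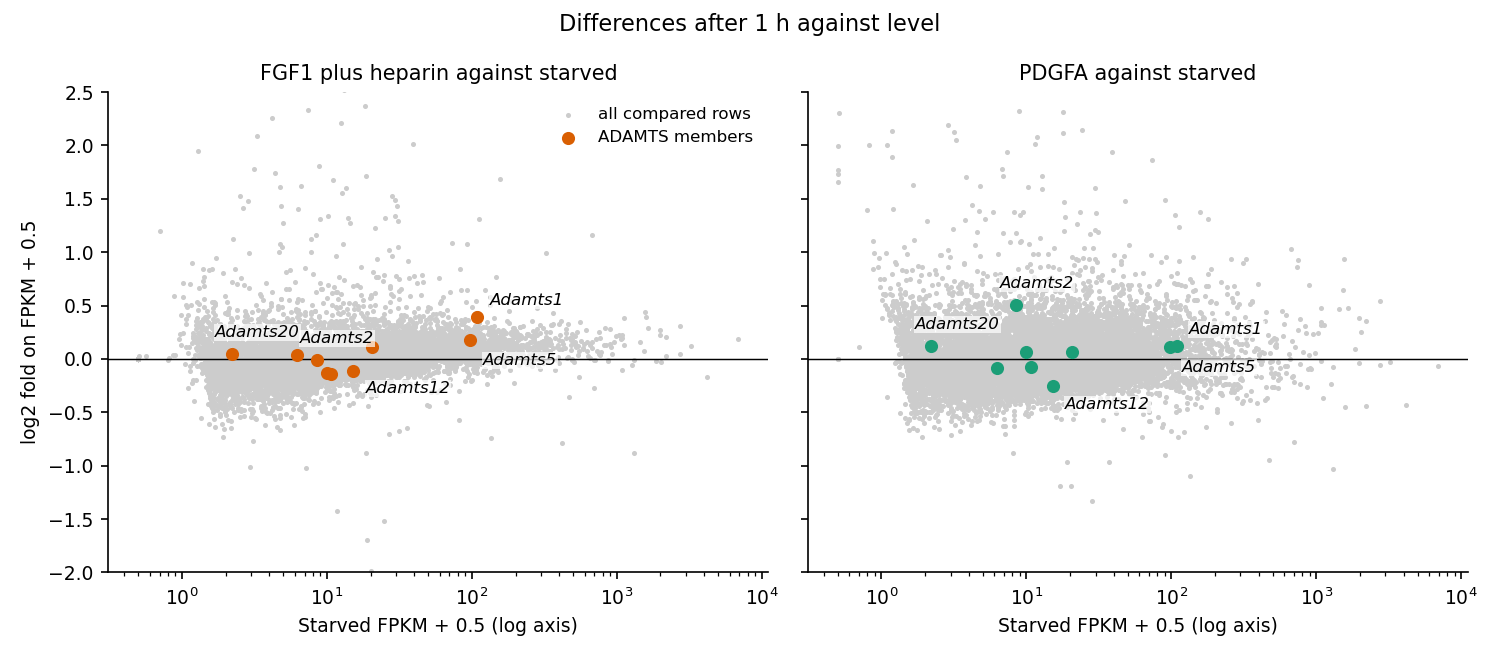
Log2 fold on FPKM + 0.5 against starved FPKM + 0.5 on a log axis, for FGF1 plus heparin (left) and PDGFA (right) against starved cells. Grey points are all compared rows, of which 26 on the left and 107 on the right lie outside the axes; coloured points are the 9 ADAMTS members, which lie within the grey cloud, with Adamts1 highest on the left at 0.39 and Adamts2 highest on the right at 0.51.

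Adamts1 and Adamts2 were the members farthest from their starved values, Adamts1 with FGF1 and Adamts2 with PDGFA, so their promoters are shown, 250 bases before to 50 after the start, from RefSeq on GRCm38.p6. Capitals mark matches to TATAAA or GGGCGG on either strand.
Adamts1: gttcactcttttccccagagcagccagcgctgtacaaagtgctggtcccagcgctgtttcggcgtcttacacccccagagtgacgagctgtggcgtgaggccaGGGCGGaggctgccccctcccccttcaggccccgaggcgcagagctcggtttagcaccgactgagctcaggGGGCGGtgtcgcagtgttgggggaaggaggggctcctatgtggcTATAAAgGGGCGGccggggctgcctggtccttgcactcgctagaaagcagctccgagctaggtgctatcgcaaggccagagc
Adamts2: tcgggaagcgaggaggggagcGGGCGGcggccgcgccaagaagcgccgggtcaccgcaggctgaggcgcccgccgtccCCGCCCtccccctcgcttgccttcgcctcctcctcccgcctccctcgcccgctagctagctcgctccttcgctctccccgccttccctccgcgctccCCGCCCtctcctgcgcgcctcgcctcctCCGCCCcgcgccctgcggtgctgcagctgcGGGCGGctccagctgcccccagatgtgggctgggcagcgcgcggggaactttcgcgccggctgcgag
The Adamts1 window is chr16:85803064-85803363 on the minus strand and the Adamts2 window chr11:50601835-50602134 on the plus strand. Promoters of 5 of the 9 members were in the table used, those of Adamts1, Adamts2, Adamts9, Adamts12 and Adamts20. The Adamts9 window, chr6:92943485-92943784, lies outside the locus of the deposited Adamts9 row, so it is not the start of the transcript model that its values describe. The TATA element TATAAA occurred once, in Adamts1, with its first base at position -32, and 13.6% of all 32851 promoters hold it. GGGCGG, the core of an SP1 site, matched 3 times in Adamts1, 5 times in Adamts2, 3 times in Adamts20, once in Adamts9 and not in Adamts12, and 35.7% of promoters hold it. Elements tied to the early response to growth factors were searched on both strands as well. They were TGANTCA of AP-1 (7.81% of promoters), GCGNGGGCG of EGR factors (5.55%, and able to overlap GGGCGG), CCGGAAGT of ETS factors (3.89%), TGACGTCA of CREB (1.79%) and the CArG box of SRF (1.63%). None had a match in the 5 windows, which says only that these letters are not there.

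Rows most like Adamts2, the member with the largest log2 fold after either ligand, were also sought. Over its 2 log2 folds, from 3 group values, the nearest of 11388 rows were Rfx1, Dpep1, Aoc3, Exosc4 and Ngfr, at Euclidean distances of 0.00682 to 0.0198. Within a distance of 0.1 lay 61 of the 11388 rows, so Adamts2 was not alone in its values.

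The 10 other ADAMTS protease genes were mostly lower in level. Of these, 6 reached 1 FPKM in a group, led in starved cells by Adamts7, a relative of Adamts12, and Adamts14, a procollagen N-proteinase like Adamts2. Adamts7 had 8.03 FPKM in FGF1 cells, 9.73 FPKM in PDGFA cells and 8.10 FPKM in starved cells, and Adamts14 had 8.28, 8.22 and 7.16 FPKM. Adamts3, Adamts8 and Adamts19 stayed below 1 FPKM in every group, and Adamts13 was listed at 0. Of the 6, 1 was called lower with FGF1, against 0.0171% of all compared rows, and 0 were called with PDGFA or between the ligands. That one was Adamts15, a proteoglycanase, with 0.648 FPKM [0.366 to 0.925] in FGF1 cells and 1.41 FPKM [0.996 to 1.83] in starved cells. It also had 0.648 FPKM [0.218 to 1.08] in PDGFA cells, and these bounds overlap those of starved cells, while the ratio of 0.459 (0.222 to 0.95) has an interval below 1. Adamts17 had 0.405 FPKM [0.221 to 0.594] in FGF1 cells, 1.02 FPKM [0.328 to 1.72] in PDGFA cells and 0.591 FPKM [0.373 to 0.809] in starved cells. Its ratio of FGF1 to PDGFA cells, 0.396 (0.174 to 0.899), has an interval below 1 although the deposited bounds overlap. The median log2 folds of the 6 were -0.20 with FGF1, 0.04 with PDGFA and -0.07 between the ligands. Of 7 ADAMTS-like and related genes, whose products lack a protease domain, 6 had a row, 5 were compared and 0 were called. No more than 0.538% of all compared rows were called in one direction in any comparison. The counts of 0 here and among the 6 above thus say nothing particular. The highest levels of the ADAMTS-like genes were those of Adamtsl4 (11.7, 13.2 and 12.3 FPKM in FGF1, PDGFA and starved cells) and Adamtsl1 (12.8, 13.3 and 12.3 FPKM). The medians of the 5 were 0.03 with FGF1, 0.10 with PDGFA and -0.06 between the ligands.

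Of 20 matrix substrates and their partners, 14 were compared and 0 were called in any comparison. In no comparison were more than 0.538% of all compared rows called in one direction, so 0 of 14 says nothing particular about these genes. The 14 had median log2 folds of -0.02 with FGF1, -0.05 with PDGFA and -0.02 between the ligands. Over all compared rows the medians were 0.02, -0.003 and 0.01. Vcan, which encodes versican, had 40.3 FPKM [25.4 to 55.2] in FGF1 cells, 41.5 FPKM [17.4 to 65.7] in PDGFA cells and 46.1 FPKM [35.2 to 57.1] in starved cells. The cartilage proteoglycan gene Acan stayed below 1 FPKM, at 0.831, 0.938 and 0.961 FPKM. Acan was 1 of 4 cartilage markers, of which 2 reached 1 FPKM in each group. Those were Col2a1 (79.9, 69.1 and 74.9 FPKM) and Sox9 (16.7, 16.3 and 15.7 FPKM), while Matn1 was low (0.167, 0.168 and 0.0726 FPKM). Col1a2, a fibrillar collagen gene, had 1986, 2405 and 2025 FPKM and the small proteoglycan gene Bgn 1301, 1249 and 1313 FPKM. Col1a1 and Thbs1 had failed estimates and were left out. Among 8 genes for the inhibitor, clearance receptors, convertases and glycosylation enzymes that act on ADAMTS proteins, 0 were called. At the same small shares over all compared rows, 0 of 8 says as little. The medians of these 8 genes were 0.09 with FGF1, -0.01 with PDGFA and 0.00 between the ligands. Timp3 had 168 FPKM [110.2 to 227] in FGF1 cells, 146 FPKM [68.4 to 223] in PDGFA cells and 149 FPKM [112 to 186] in starved cells, with bounds that overlap those of Adamts1 in every group. Lrp1 had 94.2 FPKM [60.0 to 128] in FGF1 cells, 102 FPKM [36.6 to 167] in PDGFA cells and 102 FPKM [72.3 to 132] in starved cells. Sdc4, a heparan sulfate proteoglycan of the cell surface, had 40.0 FPKM [27.0 to 53.0] in FGF1 cells and 23.9 FPKM [18.0 to 29.7] in starved cells. Its ratio of 1.67 (1.11 to 2.51) had an interval above 1 although the deposited bounds overlap, and its PDGFA level was 33.2 FPKM [18.1 to 48.3]. It was singled out after its values were seen.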

How the data were processed

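PolyA RNA-seq of 11 libraries was summarised by the authors as FPKM, 1 deposited value and 1 pair of bounds per gene row and group. Per the file headers the bounds are confidence limits, at a level not given. The build mm10 and the tools CASAVA, TopHat and Cuffdiff are named in the submitters' processing notes; their versions and roles, the annotation, strand use and multiply matching reads are not described in the sources used here. Because FPKM is scaled to the library, a large change elsewhere can move it.

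The members and gene lists were chosen with earlier results of these data known. Row accessions were matched to RefSeq GRCm38.p6 (22992 rows) and GENCODE M21 (126 rows), and 168 stayed unnamed. Loci were converted to 1-based positions. A limma fit had been planned in case each library had its own column; with group values alone, deposited intervals were compared instead, for rows with at least 1 FPKM in a group and no failed estimate (2 rows failed). A call also required each FPKM to lie inside its own interval. Log2 folds used FPKM + 0.5, which understates changes of low genes. Ratio intervals came from the relative half-widths combined on the log scale. The smallest callable rise is the ratio at which both intervals would just lie apart with relative widths unchanged. The trend was a cubic Huber regression on GC content, log2 length and log2 level, with GC known for 99.35% of compared rows. The call step was tested on simulated data only with larger rises and falls than the members showed and with less noise than the deposited bounds imply. That test therefore does not bear on ratios as near 1 as those of the members. All 9 members were named. Of the other lists, the called genes, the 2 highest in starved cells, Vcan, Timp3 and Lrp1 were named by rule. Acan with the other cartilage markers, Adamts17, Sdc4 and the genes with failed or low estimates were named after seeing their values. The pseudocount, the minimum FPKM, scaling, the call rule and the trend were each varied. Python 3.11.15 was used with numpy 2.4.6, pandas 2.3.3, statsmodels 0.14.6, Biopython 1.88 and matplotlib 3.10.9.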

Additional observations from a re-analysis of the deposited data

How the results depend on the processing

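No member was called in any of the 3 comparisons under any alternative run. Over the scalings, pseudocounts and the trend, all 135 recomputed member log2 folds stayed within their approximate 95% intervals. The largest shift was 0.257, small beside intervals this wide, so that outcome could hardly have differed and does not show the values to be stable. Of the 135 values 9 changed sign, each with a log2 fold no larger than 0.12 in size as deposited. With quantile normalization the median log2 fold of the members with PDGFA was -0.03 in place of 0.07. Counts over all rows moved more. Calling by the approximate ratio interval gave 121 rows higher and 21 lower with FGF1, 126 and 5 with PDGFA, and 14 and 41 between the ligands, in place of 63 and 2, 36 and 0, and 3 and 11. A minimum of 5 FPKM, which Adamts20 did not reach, left 1 row lower with FGF1 and 5 lower between the ligands. Dropping the minimum gave 1 row lower with PDGFA, and quantile normalization gave 3. Median-of-ratios scaling left 1 row higher between the ligands. No paired analysis was possible because the table holds 1 value per group, so fits that leave out a replicate were not run either. Depth is unknown, and the deposited intervals limit what could be called.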
